A study of Bos taurus with 6 samples.

Results

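The protamine and transition protein genes PRM1, PRM2, PRM3, TNP1 and TNP2 were followed in RNA from cattle testes. The members were the rows of the deposited table of genes that carry these 5 symbols, 5 of 47249 genes, and the 17 transcripts listed under them, of 108527 in the table of transcripts. The samples were testes of untreated Wandong cattle, a local Chinese breed, from 3 immature calves aged 3 months and 3 andrologically mature bulls aged 3 years, with 1 library of total RNA per animal after removal of ribosomal RNA. The comparison of bulls with calves asks how the levels of these genes differ between a testis before puberty and a testis that makes sperm. Values are FPKM, fragments counted per length of transcript and per depth of the library. Comparisons of levels between genes rest on that division by length. How well it holds for short genes was not tested, and PRM1 spans 502 bp.

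In the nucleus of an elongating spermatid, most histones are taken off the DNA, transition proteins take their place for a short time, and protamines then pack the DNA of the sperm head. PRM1 and PRM2 encode arginine-rich protamines, TNP1 and TNP2 encode the transition proteins, and PRM3 encodes a small acidic protein whose gene lies between PRM2 and TNP2. These genes are transcribed in round spermatids, and their messenger RNA is stored for days before it is translated, so they are used as marks of haploid germ cells. Spermatids appear in the bovine testis only with puberty.

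The bull libraries held the markers of spermatids and the calf libraries nearly lacked them. The summed FPKM of 6 markers of elongating spermatids (ODF1, AKAP4, GAPDHS, SMCP, OAZ3 and CAPZA3) lay between 1439 and 1587 in bulls and at 5.06, 4.40 and 2.02 in calf 1, calf 2 and calf 3, and that of 5 markers of round spermatids between 715 and 808 in bulls and at 2.56, 2.71 and 0.334 in calves. All 11 markers were called higher in bulls, by the test given below, where 35.7% of all genes tested were. None of the 11 reached an FPKM of 1 in all 3 calves, so all passed its filter on low values only through the bulls. For 4 of the 5 and 4 of the 6, every calf lay under 1. The library labelled calf 3 stood apart from calf 1 and calf 2. The Sertoli cell genes GATA4, WT1 and FSHR were listed at 0 in it, the summed FPKM of 7 entries for Leydig cell genes was 0.466 against 1393 and 1130, and that of 7 brain genes such as MBP, MOBP and GFAP was 8131 against 10.4 and 10.8. Its label is therefore in doubt, and the fold changes of the 5 genes and the counts of the lists are given with and without it. In whole tissue, fewer cells of a type and less RNA per cell cannot be told apart.

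PRM1 (ENSBTAG00000021493), on chromosome 25 from 9936633 to 9937134, was the most abundant of the 5 genes. Its FPKM was 11994, 10299 and 10079 in bull 1, bull 2 and bull 3, and 0.314, 0.196 and 0.647 in calf 1, calf 2 and calf 3. The groups were far apart, the bulls lay close together, and the highest value among the calves was that of the doubtful library. Over the bulls the mean was 10791 ± 1048 (SD, n = 3), and over the calves it was 0.386 ± 0.234 (SD, n = 3). The log2 fold change, on the scale of log2(FPKM + 1), was 12.94 (standard error 0.20, 95% confidence interval 12.45 to 13.42, adjusted p = 2.53e-06, limma), and 13.07 without calf 3 (adjusted p = 3.72e-07, limma). PRM1 had the largest increase of the 18115 genes tested. It was also the most abundant entry of each bull library outside the families of small non-coding RNA named after Rfam: 6, 6 and 7 entries lay above it in bull 1, bull 2 and bull 3, and every one carried an Rfam name.

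TNP1 (ENSBTAG00000019003), which encodes the shorter transition protein, lies apart from the others on chromosome 2, from 104859771 to 104861163. Its FPKM was 1552, 2229 and 1828 in bull 1, bull 2 and bull 3, and 0.105, 0.395 and 0.0640 in calf 1, calf 2 and calf 3. Again no calf came near a bull, and here calf 3 was the lowest of the calves. The log2 fold change was 10.62 (standard error 0.20, 95% confidence interval 10.12 to 11.11, adjusted p = 2.53e-06, limma), the next largest after PRM1, and 10.54 without calf 3. TNP2 (ENSBTAG00000032884), on chromosome 25 from 9926429 to 9932725, encodes a zinc-binding transition protein. Its FPKM was 991, 725 and 890 in bull 1, bull 2 and bull 3, and 0.0290, 0.0315 and 0.0809 in calf 1, calf 2 and calf 3. The bull that was highest for TNP1 was thus the lowest for TNP2. The log2 fold change of TNP2 was 9.69 (standard error 0.17, 95% confidence interval 9.28 to 10.09, adjusted p = 2.53e-06, limma), and 9.71 without calf 3.

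PRM2 (ENSBTAG00000032880) is listed on chromosome 25 from 9931753 to 9936529. In the mouse, the gene encodes the protamine that is made as a longer precursor and trimmed in the spermatid. Protein was not measured in these bulls. The FPKM of PRM2 was 430, 277 and 303 in bull 1, bull 2 and bull 3, 0.124 and 0.0126 in calf 1 and calf 2, and was listed at 0 in calf 3. The bulls were again all above the calves, at levels far under those of PRM1. The log2 fold change was 8.31 (standard error 0.21, 95% confidence interval 7.80 to 8.82, adjusted p = 3.36e-06, limma), the 21st largest of the genes tested, and 8.28 without calf 3. PRM3 (ENSBTAG00000013051), from 9931753 to 9933359, behaved differently. It was listed at 0 in all 3 calves and had an FPKM of 326 in bull 1, 17.7 in bull 2 and 0.881 in bull 3. The spread between bulls was larger than their mean (115 ± 183, SD, n = 3), and bull 3 lay barely above the calves.

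A gene was tested when its FPKM reached 1 in at least 3 of the 6 libraries. The 4 genes PRM1, PRM2, TNP1 and TNP2 passed this filter, and all 4 were called higher in bulls (adjusted p under 0.05 with a log2 fold change of 1 or more), where 35.7% of all genes tested were called higher. Without calf 3 the 4 genes were again called higher, where 37.9% of the genes were. Since the calves lay under an FPKM of 1 for each, these genes passed the filter only through the bulls, and their count is a description. PRM3 reached an FPKM of 1 in bull 1 and bull 2 only and was not tested. With no filter on low values, its difference of 4.50 (standard error 1.78) did not pass (adjusted p = 0.108, limma), in a fit where 15.6% of the genes were called higher, and without bull 1 the difference of the means was 2.57. Leaving out calf 3 left it at 4.50, since all calves were at 0. For all 5 genes the values of the groups did not overlap, as was the case for 67.4% of the genes tested. The exact permutation test of the group labels gave p = 0.1 (two-sided) for each of the 5 genes, the smallest value that 3 animals against 3 allow.

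**Figure D1:**
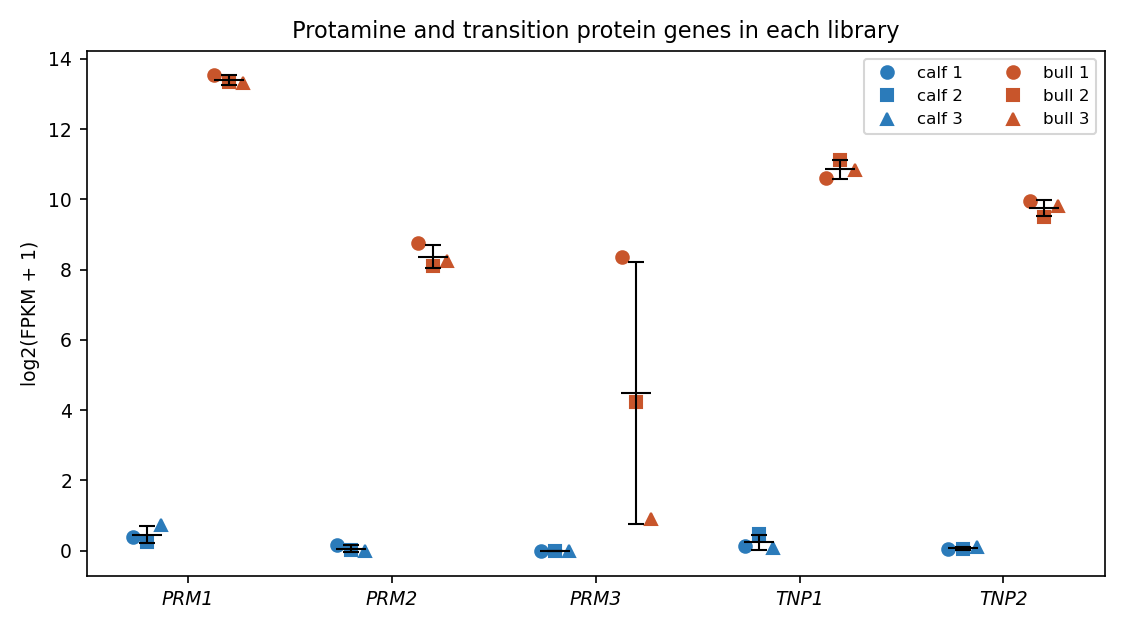
Values of the 5 genes as log2(FPKM + 1) on the vertical axis, with 1 point per library (calves in blue, bulls in red) and the mean and SD of each group (n = 3) as black bars. The bulls lie far above the calves for PRM1, PRM2, TNP1 and TNP2, whereas the bulls are spread from 0.881 to 326 FPKM for PRM3.

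The order of the levels in bulls was PRM1, TNP1, TNP2, PRM2 and PRM3, and it was the same in each of the 3 libraries. The ratio of PRM1 to TNP1 was 7.73, 4.62 and 5.52 in bull 1, bull 2 and bull 3, that of TNP1 to TNP2 was 1.57, 3.07 and 2.05, and that of TNP2 to PRM2 was 2.30, 2.62 and 2.94. The ranges of these neighbours over the bulls did not overlap. For PRM2 and PRM3 they did, since PRM3 in bull 1 (326) lay above PRM2 in bull 2 and bull 3, although within each library PRM2 was higher. With 3 bulls, an exact paired permutation test cannot go below p = 0.25, so no test of the order was made. Messenger RNA of the protamine PRM1 exceeded that of the protamine PRM2 27.9, 37.2 and 33.3 times in bull 1, bull 2 and bull 3. On the log2 scale this ratio was 5.03 ± 0.21 (SD, n = 3). It takes the levels of both genes from 1 library, so it does not depend on how the libraries were scaled. It does depend on the transcripts counted: with Ensembl transcripts alone it was 9.96 ± 4.88 (SD, n = 3), and 44.4% to 99.9% of PRM2 in bulls lay in assembled transcripts whose span holds PRM3. The markers of elongating spermatids lay between 141 and 424 FPKM in the 3 bulls, so PRM1, TNP1 and TNP2 exceeded each of these markers in each bull.

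Together the 5 genes made up 1.97%, 1.76% and 1.79% of the summed FPKM of bull 1, bull 2 and bull 3, and 3.55%, 3.18% and 3.07% when the entries with an Rfam name were left out. PRM1 alone gave between 76.0% and 78.4% of their sum. The spread between bulls was compared with that of the 726 genes whose mean FPKM in bulls was at least 100, for which the median coefficient of variation was 7.99%. It was 9.71% for PRM1, at the 62.1 percentile of these genes, and 15.4% for TNP2, 18.2% for TNP1 and 24.4% for PRM2, which lay at the 84.0, 87.7 and 92.8 percentile. PRM3, at 159%, was at the 99.7 percentile. PRM1 was thus the most even of the 5 genes among the bulls, and PRM3 the least.

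In calves the same genes lay close to 0. As a share of the mean of the bulls, PRM1 stood at 0.00291%, 0.00182% and 0.00600% in calf 1, calf 2 and calf 3, TNP1 at 0.00563%, 0.0212% and 0.00342%, and TNP2 at 0.00334%, 0.00363% and 0.00932%. PRM2 stood at 0.0369% in calf 1, the highest of these shares, and at 0.00374% in calf 2. The highest calf differed from gene to gene. In calf 3, the brain genes were high, and the Sertoli and Leydig genes were lower than in calf 1 and calf 2. PRM1 and TNP2 were there the highest of the 3 calves, whereas PRM2 and PRM3 were listed at 0. The tables give no counts, so whether such values rest on more than a few fragments is unknown.

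The totals of 3 genes were made of transcripts whose shares changed from bull to bull. PRM1 had 1 transcript, PRM1-201, in every library. For TNP1, the annotated transcript TNP1-201 (104859771 to 104860388) had an FPKM of 0.917, 1948 and 3.80 in bull 1, bull 2 and bull 3, whereas the assembled transcript TCONS_00169331 (104859771 to 104861093), which has the same first position and ends further on, had 1173, 98.4 and 1246. Thus TNP1-201 held 87.4% of the gene in bull 2, and TCONS_00169331 held 75.6% and 68.2% in bull 1 and bull 3, while the total of the gene varied far less. TNP1-201 did not pass the filter, and TCONS_00169331 was called higher in bulls (log2 fold change 9.04, standard error 0.99, adjusted p = 0.000568, limma). TCONS_00169331 was listed at 0 in each calf and passed the filter only through the bulls, so this call is a description. For PRM2, the annotated ENSBTAT00000037464 (9933500 to 9934241, orange in the plot of transcript shares) led in bull 1 with 55.5% (FPKM 239, 20.4 and 0.247 in bull 1, bull 2 and bull 3), and the assembled TCONS_00224857 led in bull 2 and bull 3 with 46.2% and 83.8% (FPKM 8.46, 128 and 254). The other annotated transcript of the gene, ENSBTAT00000075362, stayed under an FPKM of 1 in all 6 libraries.

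The entries for PRM2 and PRM3 share sequence positions. The 4 assembled transcripts of PRM2 begin at 9931753, as do PRM3-201 and TCONS_00224853, the transcripts listed for PRM3. Of the FPKM of PRM2, these 4 transcripts held 44.4% in bull 1, 92.6% in bull 2 and 99.9% in bull 3. PRM3-201 had an FPKM of 326, 0.0324 and 0.310 in the same bulls. Thus the bull in which PRM3 was high was the bull in which most of PRM2 was given to a transcript that lies outside PRM3, and in the other bulls PRM3 lay within the span of long transcripts counted under PRM2. The tables give the span of a transcript and not its exons. The FPKM of PRM2 and PRM3 added together was 757, 294 and 304, still highest in bull 1, and as 1 entry they had a log2 fold change of 8.61 (adjusted p = 1.74e-05, limma), a sum chosen after the values were seen. Fragments from overlapping transcripts can be divided in more than 1 way, and FPKM divides them by the length of the transcript they are given to. Its part in the spread of PRM3 was not tested.

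TNP2 was steadier. TNP2-201 (ENSBTAT00000054025) led in all bulls with an FPKM of 613, 511 and 633 in bull 1, bull 2 and bull 3, between 61.9% and 71.1% of the gene, and an assembled transcript of the same span had 265, 120 and 121. The gene total of TNP2 includes a pair of entries that the table names as antisense, TNP2-AS1 and TNP2-AS2. TNP2-AS1, which covers the same positions as TNP2-201 save at the ends, had an FPKM of 97.2, 73.0 and 106 in bulls and was listed at 0 in each calf. Its difference was 6.52 on the log2 scale (standard error 0.19, adjusted p = 6e-06, limma). TNP2-AS1 passed the filter only through the bulls, so this difference is a description. TNP2-AS2, whose span runs on to 9932725, into that of PRM3, had 15.4, 21.2 and 30.8. Together they made up 11.4%, 13.0% and 15.3% of TNP2 in the 3 bulls. The library kit marks strand, but the tables do not list it, so the antisense entries rest on their names alone. Without them, TNP2 had a log2 fold change of 9.50.

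**Figure D2:**
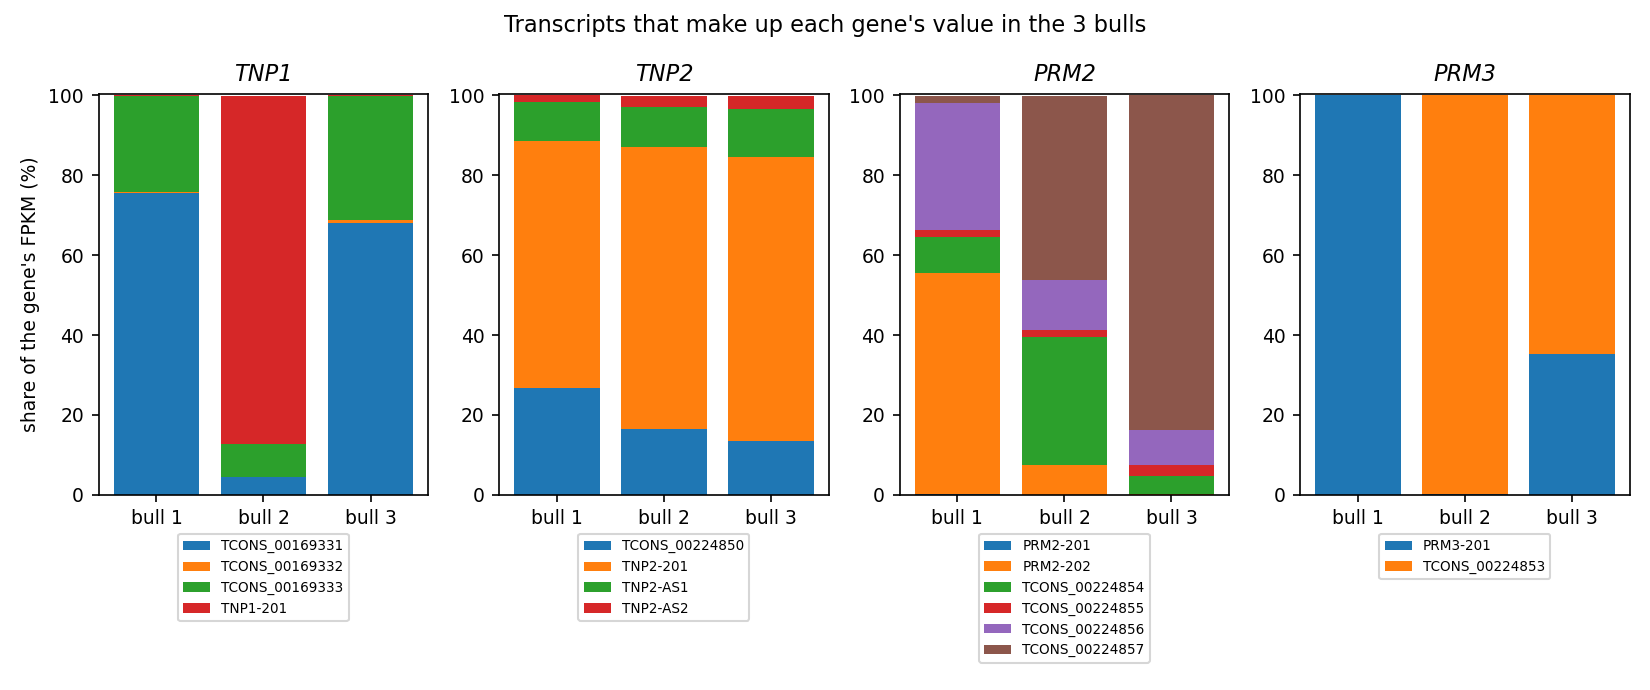
Share of each gene's FPKM (vertical axis, in percent) held by each of its transcripts in the 3 bulls, with 1 bar per bull and 1 colour per transcript. TNP1 is mostly TNP1-201 in bull 2 (87.4%) and mostly TCONS_00169331 in bull 1 and bull 3, whereas TNP2-201 leads in each bull for TNP2.

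Of the 17 transcripts, 11 passed the filter, and all 11 were called higher in bulls, where 34.8% of the transcripts tested were called higher. Their log2 fold changes ran from 2.91 for TCONS_00224855 of PRM2 (adjusted p = 0.000183, limma) to 12.94 for PRM1-201 (adjusted p = 3.35e-06, limma), and they were called without calf 3 as well. These 11 passed only through the bulls, so the count is again a description. The annotated TNP1-201 and PRM3-201 and both annotated transcripts of PRM2 were among the 6 that did not pass, each because it reached an FPKM of 1 in fewer than 3 bulls. The leading transcript differed between bulls for TNP1, PRM2 and PRM3, 3 of the 4 genes of this group with several transcripts. Over the 399 genes with several transcripts and a mean FPKM of at least 100 in bulls, the leading transcript differed for 40 (10.0%). The annotated TNP1-201 lay far under TNP2-201 in bull 1 and bull 3 but above it in bull 2, and levels of these genes are therefore given as gene totals.

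TNP2, PRM3, PRM2 and PRM1 lie in this order on chromosome 25, between 9926429 and 9937134, whereas TNP1 stands alone on chromosome 2. The nearest genes with a symbol on either side of the chromosome 25 cluster did not share its levels. SOCS1, an inhibitor of cytokine signalling, lies 12036 bp before TNP2. It was listed at 1.32, 0.448 and 0.152 FPKM in the calves, in their order, and at 0.326, 0.489 and 0.514 FPKM in the bulls, too low to be tested. RMI2, a subunit of a DNA repair complex, begins 3337 bp after PRM1 and was listed at 4.66, 4.69 and 1.36 FPKM in the calves and at 3.39, 3.83 and 3.18 FPKM in the bulls. For RMI2 the log2 fold change came to 0.07 (standard error 0.38, adjusted p = 0.880, limma), so it did not pass, and the groups overlapped. Without calf 3 it was −0.35 (adjusted p = 0.0617, limma). In bulls SOCS1 and RMI2 thus lay far under PRM1, PRM2 and TNP2. The assembled entries XLOC_147267 and XLOC_149440, which begin 3337 and 3614 bp after PRM1, were listed at 0 in each calf. In bulls they lay at 0.446 to 1.25 and at 0.552 to 0.962 FPKM, and they were not tested. Beyond SOCS1, CLEC16A ends 72605 bp before TNP2 and was called higher in bulls (1.46, adjusted p = 0.00805, limma), and by 1.80 without calf 3.

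Around TNP1, the nearest genes with a symbol were far off. IGFBP5, a binding protein of insulin-like growth factors, ends 179757 bp before TNP1 and was called lower in bulls, by −1.87 on the log2 scale (standard error 0.25, adjusted p = 0.00114, limma), and by −1.79 without calf 3. TNS1, which encodes a protein of focal adhesions, begins 1040.9 kb after it and did not pass (−0.57, standard error 0.30, adjusted p = 0.151, limma), nor without calf 3 (−0.27, adjusted p = 0.165, limma). Next to TNP1, however, an entry assembled from the reads was found, XLOC_106654, which begins 3 bp after the last position of TNP1. It was noticed after the values were seen. Its FPKM was 32.6, 33.7 and 41.0 in bull 1, bull 2 and bull 3, listed at 0 in calf 1, and 0.0380 and 0.0417 in calf 2 and calf 3. On the log2 scale it was higher in bulls by 5.16 (standard error 0.17, adjusted p = 6.46e-06, limma), and 5.17 without calf 3. It passed the filter only through the bulls, so this difference is a description. Within its span lies another assembled entry, XLOC_113006, also noticed after the values were seen. It was listed at 0 in each calf and at 3.69, 8.26 and 6.24 FPKM in bull 1, bull 2 and bull 3. Transcripts of XLOC_106654 include entries named LINC11104 to LINC11106, and those of XLOC_113006 are named LINC11758 to LINC11761. Such names are used for long non-coding RNA, and here the label rests on the names alone. Whether XLOC_106654 is part of TNP1 or a separate RNA was not tested.

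**Figure D3:**
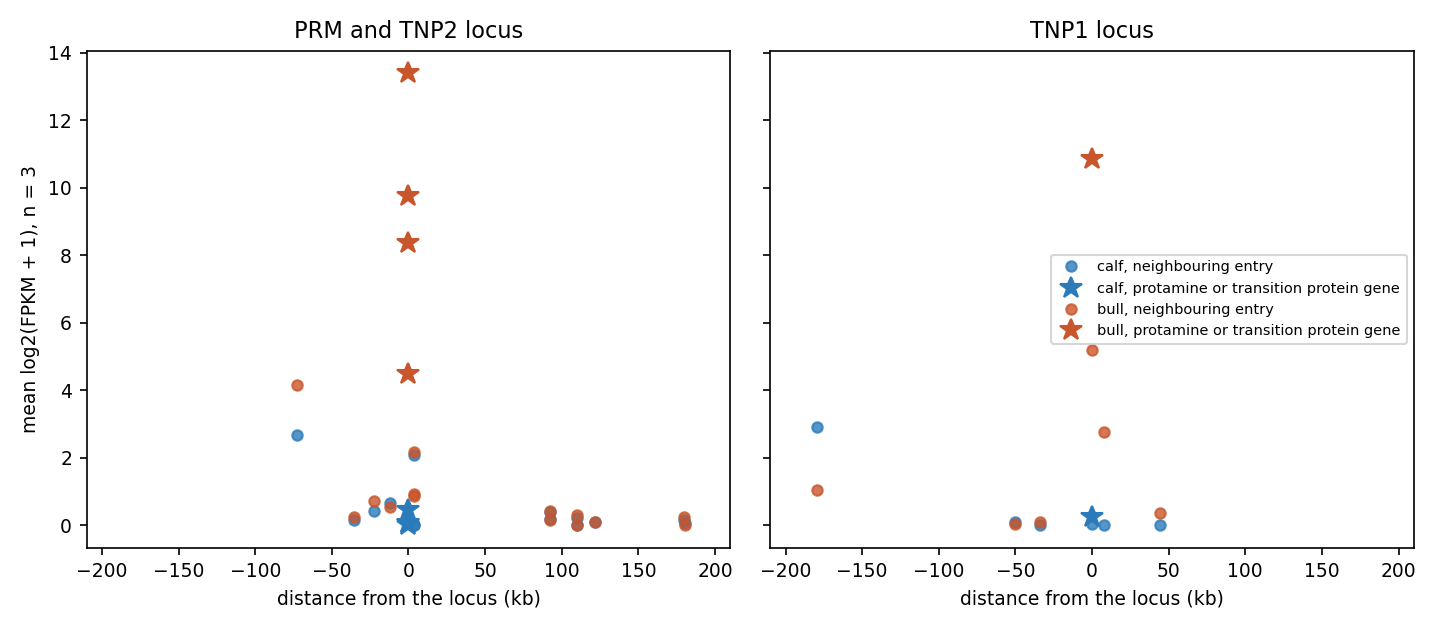
Mean log2(FPKM + 1) over 3 libraries (vertical axis) of the table's entries within 200 kb of each locus, by distance in kb (horizontal axis), with calves in blue, bulls in red and the protamine and transition protein genes as stars at 0. In bulls the stars stand above the other entries near them, and XLOC_106654 lies beside TNP1 at 32.6 to 41.0 FPKM.

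The genes whose pattern over the 6 libraries was closest to that of each gene were found by the root mean square difference of log2(FPKM + 1), each profile centred on its own mean, among 13752 other genes with a symbol. For PRM1, the closest was TNP1 (1.21 log2 units), followed by HSPB9 (1.53), TNP2 (1.63), H3F3C (1.79) and HMGB4 (1.87). For TNP1, they were HSPB9 (0.45), TNP2, H3F3C, HMGB4 and CETN1. For TNP2, they were HSPB9 (0.16), H3F3C, HMGB4, GSG1 and CETN1. HSPB9 encodes a small heat shock protein of the testis, HMGB4 an HMG-box protein of spermatids and CETN1 a centrin of male germ cells. HSPB9 had an FPKM of 1197, 1022 and 1046 in bull 1, bull 2 and bull 3, and between 0.0722 and 0.251 in calves. H3F3C (ENSBTAG00000011508) belongs to a histone family whose copies are almost alike in sequence, so its value is uncertain. For PRM2, the closest were DEFB122A (0.16), DNAJB8 (0.17), SMCP (0.20), ACTL7B (0.22) and P3R3URF (0.23). DEFB122A belongs to the beta-defensins, DNAJB8 to the DnaJ chaperones and ACTL7B to the actin-like proteins of the testis, and SMCP encodes a cysteine-rich protein of sperm mitochondria. All of these profiles share the step between calves and bulls and the same 6 libraries, so the likeness is a description.

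Genes that act before, on or around the protamines were counted in 5 lists. The lists were read against the 35.7% of all genes tested that were called higher and the 9.61% called lower, and against a median log2 fold change of 0.43 over all genes. With quantile normalization the calls over all genes turned from 6474 higher and 1741 lower to 3827 higher and 4538 lower, and the lists, in the order below, had 2, 8, 6, 8 and 11 genes called higher. In the lists, in the order below, 2, 1, 0, 2 and 2 of the genes tested had all calves under an FPKM of 1. These, and others under it in some of the calves, passed the filter only through the bulls, so the counts are a description. Markers of spermatids rose with each list, and their part in the counts was not tested.

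Of the 4 entries found for the list of spermatid histone variants, 3 were called higher and none lower, at a median log2 fold change of 4.0. All 4 were called higher without calf 3. They were matched by symbol, and whether each replaces other histones in spermatids was not tested. The list held 5 symbols, 2 of which (H1-7 and H2BC1) matched no entry by symbol. H3F3C (ENSBTAG00000011508) had a log2 fold change of 9.43 (adjusted p = 3.29e-06, limma), another entry of H3F3C 4.63, and HILS1, a linker histone of spermatids, 1.18 (adjusted p = 0.00325, limma), with an FPKM of 1.62 ± 0.518 (SD, n = 3) in bulls. HIST1H1T, the linker histone of spermatocytes, was listed at 115, 189 and 104 FPKM in the bulls, at 39.0 and 48.1 in calf 1 and calf 2, and at 0.0751 in calf 3. It was not called with the 6 libraries weighted equally, and was called higher without calf 3 (1.58, adjusted p = 0.00202, limma) and with weights estimated for each library.

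Of 14 tested genes of histone removal and chromatin remodelling, 9 were called higher and 1 lower, with a median log2 fold change of 2.71. PHF7, a histone ubiquitin ligase of the male germ line, rose from 3.57 ± 1.89 to 527 ± 10.8 FPKM (SD, n = 3 each). TSSK6, a kinase of spermatids, rose from 0.726 ± 0.0554 to 193 ± 44.6 FPKM (SD, n = 3 each), and BRDT, the bromodomain protein that binds acetylated histones in spermatids, from 1.32 ± 0.259 to 34.5 ± 1.70 FPKM (SD, n = 3 each). Their log2 fold changes were 6.95, 6.79 and 3.94, and 6.56, 6.80 and 4.02 without calf 3, when again 9 genes were called higher and 1 lower. TOP2B, a topoisomerase that cuts DNA and is found in many tissues, was the gene called lower (−1.10, standard error 0.14, adjusted p = 0.000899, limma), with an FPKM of 46.2 ± 2.11 in calves and 21.1 ± 1.71 in bulls (SD, n = 3 each), though not when the libraries were rescaled to a common sum. RNF8, the ubiquitin ligase named for this step in the mouse, had a log2 fold change of 0.62 (adjusted p = 0.00893, limma). It was not called, since this lay under the fold change required.

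All 8 genes for kinases, chaperones and import of these proteins were called higher and none lower, with a median log2 fold change of 3.27. HSPA4L, a heat shock protein, had a log2 fold change of 4.21, HSPA2, a chaperone of transition proteins, 4.10, and GPX4, a peroxidase whose nuclear form cross-links protamines, 3.75 (adjusted p between 0.000215 and 0.00234, limma). HSPA4L stood at 5.11 and 4.93 FPKM in calf 1 and calf 2 but at 29.98 in calf 3, and leaving out calf 3 raised its log2 fold change to 4.995. SRPK1, a kinase that phosphorylates PRM1, rose from 19.1 ± 3.28 to 246 ± 18.6 FPKM (SD, n = 3 each). Without calf 3, 7 of the 8 were called, and CSNK2A2 was not (0.78, under the fold change required).

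Of 9 genes for transcription in spermatids, 8 were called higher and none lower, with a median log2 fold change of 4.49. KIF17, a motor that carries a coactivator of CREM, rose from 1.08 ± 0.441 to 236 ± 23.6 FPKM (SD, n = 3 each), a log2 fold change of 6.85. FHL5, that coactivator, had 5.45. It stood at 0.0174 and 0.0286 FPKM in calf 1 and calf 2 but at 2.65 in calf 3, and leaving out calf 3 gave 6.06. CREM, the activator that binds the promoters of the protamine and transition protein genes, rose from 3.11 ± 0.399 to 142 ± 5.73 FPKM (SD, n = 3 each), a log2 fold change of 5.13. TAF7L was the gene not called (1.49, adjusted p = 0.203, limma, and 0.44 without calf 3). The 8 calls were made without calf 3 as well.

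Of 20 genes for the storage and translation of spermatid messenger RNA, 13 were called higher and none lower, with a median log2 fold change of 2.22. YBX2, the germ cell protein that binds and holds back messenger RNA such as that of PRM1, rose from 0.300 ± 0.209 to 340 ± 31.4 FPKM (SD, n = 3 each), a log2 fold change of 8.05 (adjusted p = 2.79e-06, limma). PIWIL1, a protein of the piRNA pathway, had 6.49, and DDX25, a helicase of germ cells, had 5.61. The 7 genes not called included KHDRBS1 (0.04, adjusted p = 0.822), ELAVL1 (0.34, adjusted p = 0.105) and TARBP2 (0.19, adjusted p = 0.508, limma). Without calf 3 there were again 13 calls, with CPEB2 called and PABPC1 not.

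**Figure D4:**
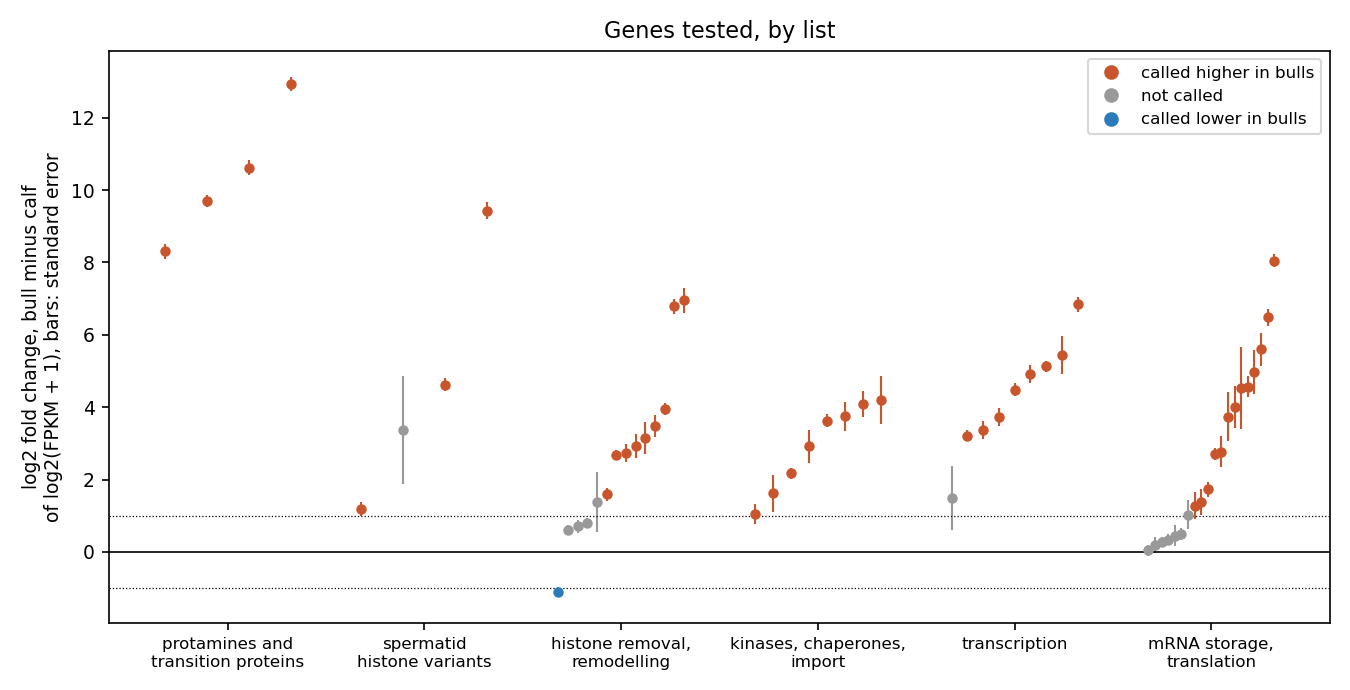
Log2 fold change (bull minus calf, on log2(FPKM + 1), with the standard error as bars) of each gene tested, by list, with called genes in red (higher) or blue (lower) and the others in grey. The protamine and transition protein genes lie between 8.31 and 12.94, and TOP2B is the gene called lower.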

How the data were processed

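After quality filtering, the authors took out ribosomal RNA reads with Bowtie2, aligned the remainder by TopHat2 and built transcripts with StringTie. They name Cuffdiff and Ballgown for the levels of circular RNA. They deposited FPKM values of genes and transcripts, and which tool made these values is not given in the sources used here. The authors name UMD3.1.1, but of 16434 entries that share a symbol with RefSeq on ARS-UCD, 99.4% overlapped its position there (5 of 5 for the genes described), so positions are printed as in the table. No counts were given. At low values, at most 3.02% of genes shared the commonest ratio to calf 1, so counts could not be recovered, the depth behind a value is unknown, and no counting interval is given.

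Log2(FPKM + 1) was fitted with limma 3.58.1 in R 4.3.3 (mean-variance trend, two-sided) for the 18115 genes, or 23212 transcripts, that reached an FPKM of 1 in 3 or more of the 6 libraries. The Benjamini-Hochberg adjustment covered all of them. Calls required an adjusted p under 0.05 and a log2 fold change of 1 or more in size. The fit was tested on simulated data. Alternatives were a pseudocount of 0.1, no filter, a common sum, quantile normalization, array weights, a replicate block and leaving out each library. Figures were drawn with matplotlib 3.10.9.

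The genes and lists were chosen with earlier results of these data known. Named were the 5 genes with their transcripts, from each list the 3 called genes of largest fold change and those called lower, the nearest genes with a symbol, the 5 genes closest in pattern, and markers at 0 in calf 3. Others were named after their values were seen. No sequences were used here, and 1 brain marker is not reported here.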

Additional observations from a re-analysis of the deposited data

How the results depend on the processing

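PRM1, PRM2, TNP1 and TNP2 were called higher in bulls under every alternative computed, with log2 fold changes of 12.84 to 14.54, 7.84 to 11.25, 10.23 to 12.82 and 9.34 to 12.53 and adjusted p of at most 0.000572 (limma). The highest values came with a pseudocount of 0.1, so the size of these changes depends on the number added to calf values near 0. The labels give no pairing beyond the replicate number. The deviations of same-numbered calves and bulls were nearly uncorrelated (correlations 0.028, 0.025 and 0.034, each the best of its row). The other pairs lay between −0.049 and 0.022. With the replicate block, the 4 genes kept log2 fold changes of 12.94, 8.31, 10.62 and 9.69 (adjusted p = 0.000572, limma), and the calls over all genes went from 6474 to 6437 higher and from 1741 to 1691 lower. PRM3, outside the filter, had no value under the block, array weights or quantile normalization, and its difference ran from 2.57 to 6.29 with a bull left out. Quantile normalization moved the median of all genes from 0.43 to −0.26 and gave 3827 genes called higher and 4538 lower. A common sum moved it to 0.61, gave 1070 genes called lower and left 0 genes of histone removal called lower. From Ensembl transcripts alone, the mean log2 ratio in bulls (± SD, n = 3) was 9.15 ± 5.96 for PRM1 to TNP1, 4.21 ± 0.18 for PRM1 to TNP2, 9.96 ± 4.88 for PRM1 to PRM2, −4.94 ± 6.04 for TNP1 to TNP2, 0.81 ± 7.77 for TNP1 to PRM2 and 5.75 ± 5.04 for TNP2 to PRM2, against 2.54 ± 0.38, 3.64 ± 0.17, 5.03 ± 0.21, 1.10 ± 0.49, 2.48 ± 0.59 and 1.38 ± 0.17 from gene totals, since assembled transcripts hold much of TNP1 and PRM2.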

Other observations

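Of the entries without an Rfam name, the next below PRM1 by the mean of the bulls was an Ensembl gene without a symbol in the table, ENSBTAG00000052046, on chromosome 23 from 32153019 to 32153222. Its FPKM was 9925, 8679 and 9069 in bull 1, bull 2 and bull 3, and 26.2, 19.8 and 0.897 in calf 1, calf 2 and calf 3. After it came XLOC_155856, an assembled entry on chromosome 27, whose groups overlapped (4631, 11419 and 8531 FPKM in the calves, and 4764, 4363 and 5668 FPKM in the bulls). TNP1, with a mean of 1870 FPKM in bulls, stood beside INSL3, the hormone of Leydig cells, with a mean of 1907 FPKM. These entries were noticed after the values were seen.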
